A study of Danio rerio with 4 samples.

Results

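Transferrin (*tfa*), apolipoprotein A-I (*apoa1a*), retinol-binding protein (*rbp4*) and the ileal bile acid binding protein (*fabp6*) are described here in RNA from zebrafish tails, each by itself. These 4 genes, of 32520 in the count table, were picked from the genes that the study lists as different between *asxl1*-/- and *asxl1*+/+ tails, so their difference by genotype chose them, and it is given below as a description that supports nothing further. The study asked how an Asxl1 protein cut short at its C-terminal end affects blood formation. RNA-seq was run on 4 libraries, 2 from *asxl1*-/- and 2 from *asxl1*+/+ embryos, named replicate A and replicate B within each genotype by their labels. Both genotypes were on the AB background and were littermates from intercrosses of *asxl1*+/- fish. The *asxl1*-/- embryos carried an inherited CRISPR/Cas9 deletion that leads to an early stop codon. The study made 2 such alleles, and by its general statement data are from the longer deletion unless specified, with no other allele named for the RNA-seq. Each library was a pool of about 20 tails at 3 days post fertilization (dpf). Part of the tail is the caudal hematopoietic tissue, in which blood stem and progenitor cells settle.

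Transferrin binds ferric iron in plasma and hands it to cells through transferrin receptors, which erythroid cells use to make haem. Apolipoprotein A-I is the main protein of high-density lipoprotein, retinol-binding protein carries vitamin A out of its stores in plasma, and the ileal bile acid binding protein carries bile acids inside absorptive cells of the distal intestine. In the zebrafish embryo, proteins of this kind are made by the yolk syncytial layer, which moves yolk lipid into the circulation, and later by the liver and gut. In RNA from a pool of whole tails, fewer cells of a type and less RNA per cell cannot be told apart.

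Total counts per library lay between 19423797 and 20027260 in *asxl1*-/- and between 22963847 and 26281738 in *asxl1*+/+, so both *asxl1*-/- libraries were the shallower. Levels are given as CPM, a gene's counts scaled to a common library total, with library factors by trimmed mean of M values (TMM), and levels of different genes are compared only per kilobase of exons. Means are given with the SD over the 2 libraries of each genotype. *asxl1* itself, on chromosome 23 (30730121 to 30752553, GRCz11), had 57.2 and 57.6 CPM in *asxl1*-/-, against 65.4 and 65.3 CPM in *asxl1*+/+. A small deletion leaves nearly all of the gene's reads countable, so these levels do not check the labels. Of 19970 genes with enough counts to test, 12 had a false discovery rate (FDR) below 0.05 between the genotypes by edgeR's quasi-likelihood test, 5 of them lower and 7 higher in *asxl1*-/-. The 10 skeletal muscle genes summed to 82498 and 83479 CPM in *asxl1*-/- and to 85050 and 86368 CPM in *asxl1*+/+. Skeletal muscle is also found outside the tail, so this sum does not by itself show tail tissue. It came mostly from *actc1b*, whose log2 fold change of *asxl1*-/- over *asxl1*+/+ was -0.09 (SE 0.03). The sum mixes directions, with 8 log2 fold changes above 0 and 2 below, so it does not show less muscle RNA in *asxl1*-/-. Of the 10 genes, 9 are on the study's list. No source says that the libraries of a genotype came from separate clutches, so FDR values measure only the spread between these libraries.

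*apoa1a* (ENSDARG00000012076, chromosome 5, 37978501 to 37981521, plus strand, 4 exon blocks with 974 bases in all) was the most abundant of the 4. It had 1863 and 1764 CPM in *asxl1*-/- replicates A and B, against 1998 and 2015 CPM in *asxl1*+/+ replicates A and B. Both *asxl1*-/- libraries were below both *asxl1*+/+ libraries, and the *asxl1*+/+ libraries lay close together. The means were 1814 ± 70.0 CPM (SD, n = 2) in *asxl1*-/- and 2006 ± 12 CPM in *asxl1*+/+, which puts the *asxl1*-/- mean at 90.4% of the *asxl1*+/+ mean. The fitted log2 fold change of *asxl1*-/- over *asxl1*+/+ was -0.15 (SE 0.04).

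*tfa* (ENSDARG00000016771, chromosome 2, 16780643 to 16794710, plus strand, 16 exon blocks with 5009 bases in all) encodes transferrin. It had 757 and 868 CPM in *asxl1*-/- replicates A and B, against 794 and 969 CPM in *asxl1*+/+ replicates A and B. The genotypes overlapped, since *asxl1*-/- replicate B was above *asxl1*+/+ replicate A. The means were 813 ± 78.6 CPM (SD, n = 2) in *asxl1*-/- and 881 ± 124 CPM in *asxl1*+/+, or 92.2% of the *asxl1*+/+ mean in *asxl1*-/-. The log2 fold change was -0.12 (SE 0.09), and it was 0.034 when *asxl1*+/+ replicate B was left out.

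*rbp4* (ENSDARG00000101199, chromosome 12, 5115929 to 5120339, minus strand, 5 exon blocks with 1574 bases in all) encodes the plasma carrier of retinol. It had 909 and 986 CPM in *asxl1*-/- replicates A and B, against 963 and 1111 CPM in *asxl1*+/+ replicates A and B. As for *tfa*, the highest library was *asxl1*+/+ replicate B, the lowest was *asxl1*-/- replicate A, and the genotypes overlapped. The means were 947 ± 54.0 CPM (SD, n = 2) in *asxl1*-/- and 1037 ± 105 CPM in *asxl1*+/+, or 91.4% of the *asxl1*+/+ mean in *asxl1*-/-. The log2 fold change was -0.13 (SE 0.07), and it was -0.02 without *asxl1*+/+ replicate B.

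*fabp6* (ENSDARG00000044566, chromosome 21, 30043054 to 30047353, plus strand, 4 exon blocks with 508 bases in all) differed from the others in being scarce. It had 16 and 8 counts in *asxl1*-/- replicates A and B, against 54 and 17 counts in *asxl1*+/+ replicates A and B, 95 in all. Its exact 95% Poisson intervals, which cover counting error only, ran over 9.15 to 26 and 3.45 to 15.8 counts in *asxl1*-/- replicates A and B, and over 40.6 to 70.5 and 9.90 to 27.2 counts in *asxl1*+/+ replicates A and B. Only *asxl1*+/+ replicate A stood clear of the rest, and the intervals of the other 3 libraries overlapped. On the scale of depth these counts were 0.815 and 0.403 CPM in *asxl1*-/-, against 2.34 and 0.654 CPM in *asxl1*+/+. The means were 0.609 ± 0.291 CPM (SD, n = 2) in *asxl1*-/- and 1.5 ± 1.19 CPM in *asxl1*+/+. The log2 fold change was -1.26 (SE 0.60), and it was -0.11 when *asxl1*+/+ replicate A was left out, so 1 library decided its size.

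**Figure D1:**
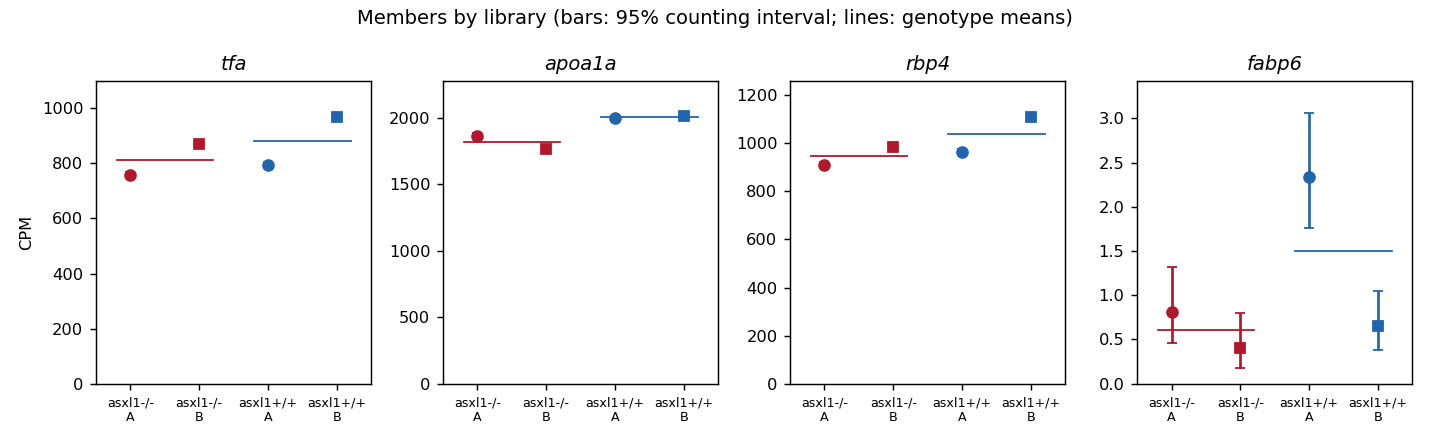
CPM (vertical axis, from 0, a separate scale for each gene) of *tfa*, *apoa1a*, *rbp4* and *fabp6* in the 2 *asxl1*-/- (red) and the 2 *asxl1*+/+ (blue) libraries (horizontal axis), with circles for replicate A, squares for replicate B, lines for genotype means and bars for 95% counting intervals, which are shorter than the symbols for all but *fabp6*. Only *apoa1a* has both *asxl1*-/- libraries below both *asxl1*+/+ libraries, and *fabp6* has 1 high library, *asxl1*+/+ replicate A at 2.34 CPM.

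All 4 genes had a lower mean in *asxl1*-/-, a direction that the way they were picked can fix. In fits with no term for the replicate letter, none of the 4 reached an FDR below 0.05 for genotype. That held for edgeR's quasi-likelihood test, its exact test and DESeq2, and 0.0601% of all genes tested reached it by the quasi-likelihood test. The study called its list of 294 genes at an FDR below 0.05 by edgeR's exact test, by which 53 genes were called here. The cause of this difference was not tested. *apoa1a* was the 1 gene of the 4 whose genotypes did not overlap, and 14.6% of all genes tested were lower in *asxl1*-/- without overlap. Since the genes were picked on this contrast, nothing is read from these counts. Averaged over their lower and upper sides, the 95% counting intervals of the 3 abundant genes reached 0.857% to 1.61% of the count. Those of *fabp6* reached 27.7% to 76.9%, and further on the upper side alone. The *asxl1*+/+ libraries of *apoa1a* lay within each other's counting error.

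Per kilobase of exons the order of levels was the same in every library. *apoa1a* had 1812 to 2069 CPM per kilobase over the 4 libraries and ranked 34th of 32520 genes by its mean. *rbp4* had 578 to 706 CPM per kilobase and ranked 107th, *tfa* had 151 to 193 CPM per kilobase and ranked 288th, and *fabp6* had 0.793 to 4.61 CPM per kilobase and ranked 12910th. The ranges of neighbours in this order did not overlap, so transcripts of the 3 plasma carriers were among the most abundant 0.886% of genes and the bile acid binding protein stood at 39.7%. Together the 4 genes took 0.357% and 0.359% of all counts in *asxl1*-/- and 0.377% and 0.405% in *asxl1*+/+.

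The replicate letters split the libraries across genotype, and this contrast was not used to pick the genes. The fit by letter had no term for genotype, so the difference by genotype that picked the genes is part of its spread. The labels do not say what libraries of the same letter share. *tfa* was higher in the B libraries, with a mean of 919 CPM in B and 776 CPM in A, and the letters did not overlap. Its log2 fold change of B over A was 0.24 (SE 0.05), with an FDR of 0.0205 by edgeR's quasi-likelihood test over all genes tested. That call was lost when any library other than *asxl1*-/- replicate B was left out, with a log2 fold change of 0.29 (FDR 0.0698) without *asxl1*+/+ replicate A, 0.16 (FDR 0.217) without *asxl1*+/+ replicate B and 0.21 (FDR 0.181) without *asxl1*-/- replicate A. The log2 fold change was thus larger in the first of these and smaller in the others.

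*rbp4* averaged 1048 CPM in B and 936 CPM in A, also without overlap, with a log2 fold change of B over A of 0.16 (SE 0.05) and an FDR of 0.140. *fabp6* ran the other way, with 0.528 CPM in B and 1.58 CPM in A, no overlap, a log2 fold change of -1.57 (SE 0.47) and an FDR of 0.103. *apoa1a* averaged 1890 CPM in B and 1931 CPM in A, the letters overlapped, and its log2 fold change was -0.03 (SE 0.05) with an FDR of 0.846. Of the 4 genes, 1 (*tfa*) thus passed the threshold by letter in this fit, where 2.79% of all genes tested did. With genotype as a block, the FDR by the same test was 8.04e-11 for *tfa*, 4.52e-05 for *rbp4*, 0.000917 for *fabp6* and 0.605 for *apoa1a*. That fit called 1703 of 19970 genes tested. B was higher without overlap in 2 of the 4, as in 22.8% of all genes tested, and lower without overlap in 1 of the 4, as in 23.3%. For 3 of the 4 genes (*tfa*, *rbp4* and *fabp6*) the difference between letters was larger in size than the difference between genotypes, and *apoa1a* was the exception. Over all genes tested the median size of the log2 fold change was 0.13 by letter and 0.09 by genotype.

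Between libraries of the same letter, *tfa* was at a log2 ratio of *asxl1*-/- over *asxl1*+/+ of -0.07 in A and -0.16 in B. For *rbp4* these ratios were -0.08 in A and -0.17 in B, and for *apoa1a* they were -0.10 in A and -0.19 in B. All 3 were thus lower in *asxl1*-/- within each letter, and by more in B. *fabp6* was at -1.52 in A and -0.70 in B, and the B value comes from 8 against 17 counts, whose intervals overlap. Each of these ratios compares 1 library with 1 library and has no replicate, and 27.3% of all genes tested were lower in *asxl1*-/- within both letters.

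**Figure D2:**
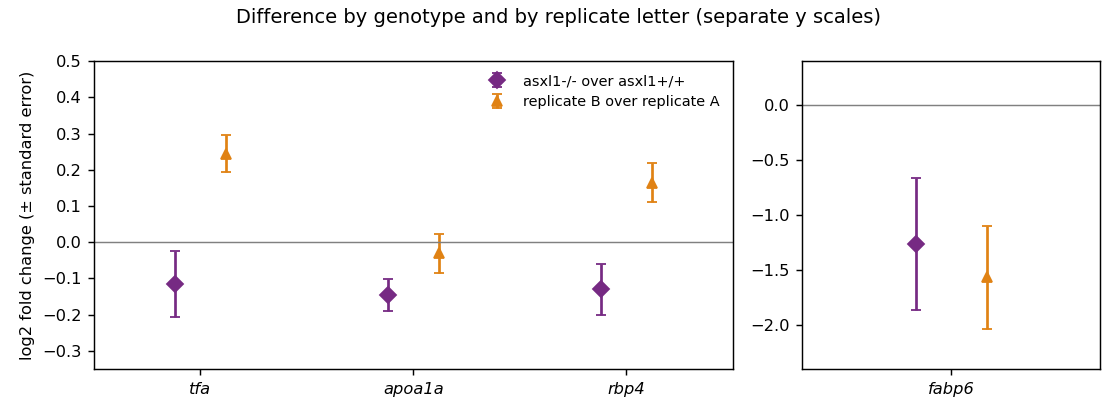
Log2 fold change with its standard error (vertical axis, separate scales for the left and right panels) for *tfa*, *apoa1a*, *rbp4* and *fabp6* (horizontal axis), with diamonds for *asxl1*-/- over *asxl1*+/+ and triangles for replicate B over replicate A. By genotype *tfa*, *apoa1a* and *rbp4* lie at -0.12, -0.15 and -0.13, and by letter *tfa* and *rbp4* lie at 0.24 and 0.16 while *apoa1a* lies at -0.03.

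How the genes stood to each other within a library also followed the letters. The ratio of *apoa1a* to *tfa*, in CPM per kilobase, was 12.7 and 10.4 in *asxl1*-/- replicates A and B, against 12.9 and 10.7 in *asxl1*+/+ replicates A and B. The ratio of *apoa1a* to *rbp4* was 3.31 and 2.89 in *asxl1*-/- replicates A and B, against 3.35 and 2.93 in *asxl1*+/+ replicates A and B. Both ratios were higher in the A libraries than in the B libraries and overlapped between the genotypes. The ratio of *tfa* to *rbp4* moved the least, at 0.262 and 0.277 in *asxl1*-/- replicates A and B and 0.259 and 0.274 in *asxl1*+/+ replicates A and B. Against *fabp6* the ratio of *apoa1a* spread widely, at 1193 and 2285 in *asxl1*-/- replicates A and B and 445 and 1607 in *asxl1*+/+ replicates A and B, with *fabp6* counts of 8 to 54 below it.

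**Figure D3:**
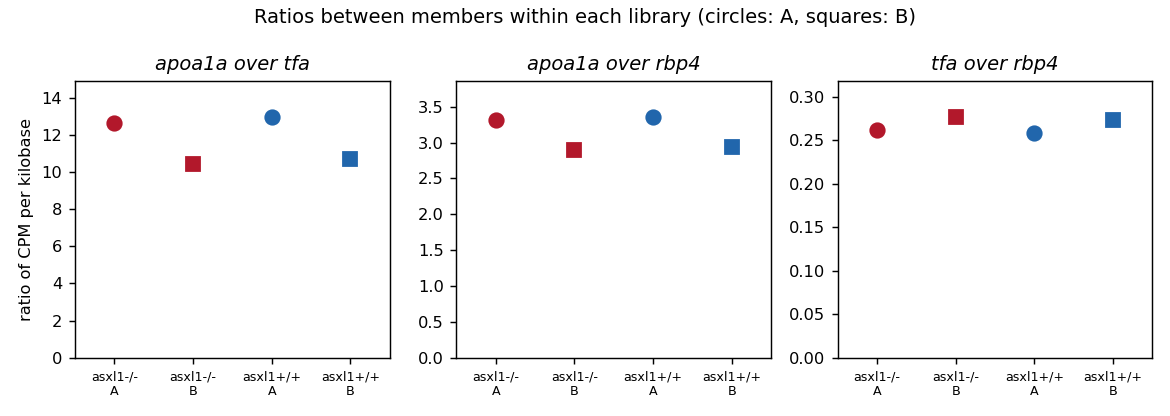
Ratios of CPM per kilobase (vertical axis, from 0) of *apoa1a* over *tfa*, *apoa1a* over *rbp4* and *tfa* over *rbp4* in the 2 *asxl1*-/- (red) and the 2 *asxl1*+/+ (blue) libraries (horizontal axis), with circles for replicate A and squares for replicate B. In each panel the libraries of the same letter lie together, such as 12.7 and 12.9 for the A libraries and 10.4 and 10.7 for the B libraries of *apoa1a* over *tfa*.

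By the distance between centred log2 CPM values over the 4 libraries, the genes most like *tfa* among 17428 named genes with a mean of at least 1 CPM were *ovol1a* (distance 0.01), CACTIN and RNLS, and *rbp4* came 206th, at 0.08. Nearest to *rbp4* were ID1 (distance 0.01), EEF1A1 and BRD7, with *tfa* in place 284. *apoa1a* had *si:ch211-137a8.4*, *lsp1a* and *sv2* as its nearest, with *rbp4* in place 4653 and *tfa* in place 9466. *fabp6* had no close match, since its nearest, *si:dkey-153k10.6*, lay at a distance of 0.70. None of these nearest genes is among the iron, lipoprotein, retinoid or bile acid genes listed below. With values in only 4 libraries many genes have nearly the same pattern, so a small distance describes these libraries and no more. Names in capitals are given as the gene name table spells them.

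The genes beside the 4 on their chromosomes were set next to them as a local comparison. Nearest to *apoa1a* was *si:ch211-139a5.1*, 279 bases away with a log2 fold change of *asxl1*-/- over *asxl1*+/+ of 0.12 (SE 0.27). On its other side was PAFAH1B2, 7.49 kb away with 0.15 (SE 0.18). Beside *tfa* stood EIF4G1, 3.94 kb away with -0.04 (SE 0.06), and UBXN7, 43.3 kb away with -0.23 (SE 0.12). *rbp4* lay between CEP55 (2.54 kb, 0.08, SE 0.18) and PDE6C (8.91 kb, 0.32, SE 0.42), the latter with 10 to 22 counts per library. *fabp6* lay between CCNJL (7.42 kb, -0.03, SE 0.12) and PWWP2A (10.3 kb, 0.01, SE 0.13). None of these 8 neighbours reached an FDR below 0.05, or an unadjusted p below 0.05, between the genotypes by edgeR's quasi-likelihood test. Of all genes tested, 0.0601% reached the first and 3.08% the second. No exon of another gene in the table overlapped an exon of the 4, so no reads could be shared with an overlapping gene.

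Transferrin works with receptors, ferritins and exporters, and the list of iron handling genes shows where these stood. Of 17 genes listed, 14 were matched by name and 13 passed the filter on low counts. Of the 13, 4 had a log2 fold change above 0 and 9 below 0, with a median of -0.08, against a median of 0.00075 over all genes tested. The 13 include *tfa* itself, and 4 of the 14 matched genes are on the study's list, so this median is not independent evidence. The apolipoprotein, retinoid and bile acid lists below likewise include *apoa1a*, *rbp4* and *fabp6*. The ferritin genes *fthl28* and *fthl31*, whose products store iron, averaged 15.8 ± 2.81 and 24.6 ± 5.14 CPM in *asxl1*-/-, against 26.2 ± 7.81 and 35.0 ± 5.69 CPM in *asxl1*+/+ (SD, n = 2 each). Both were lower in *asxl1*-/- without overlap, with log2 fold changes of -0.74 (SE 0.19) and -0.51 (SE 0.15). *fth1a*, by far the most abundant ferritin gene listed in CPM per kilobase, had a log2 fold change of -0.09 (SE 0.05).

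The transferrin receptor gene *tfr1a*, which erythroid cells need for iron uptake in zebrafish, had 43.9 and 45.8 CPM in *asxl1*-/-, against 37.5 and 38.8 CPM in *asxl1*+/+. It is on the study's list and was higher in *asxl1*-/- without overlap, with a log2 fold change of 0.23 (SE 0.08). *tfr1b*, the other copy of that receptor gene, averaged 36.8 ± 7.73 CPM (SD, n = 2) in *asxl1*-/-, against 36.9 ± 8.70 CPM in *asxl1*+/+. Like *tfa* it was higher in B (log2 fold change 0.46, FDR 0.00140 by edgeR's quasi-likelihood test). *slc40a1*, which encodes the iron exporter ferroportin and is strong in the yolk syncytial layer, had a log2 fold change of -0.12 (SE 0.09) with overlapping genotypes. *hamp*, the gene of the iron hormone hepcidin, was scarce, at 22 and 20 counts in *asxl1*-/- and 28 and 27 counts in *asxl1*+/+.

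Among 26 listed genes for apolipoproteins and lipid transfer, 22 were matched and passed, 11 with a log2 fold change above 0 and 11 below, with a median of -0.00081. The nearest relative of *apoa1a*, *apoa1b*, averaged 2787 ± 74.6 CPM (SD, n = 2) in *asxl1*-/-, against 2953 ± 162 CPM in *asxl1*+/+ with overlap, and its log2 fold change was -0.08 (SE 0.05). *apoa2*, another protein of high-density lipoprotein, averaged 1947 ± 30.2 CPM (SD, n = 2) in *asxl1*-/-, against 2055 ± 120 CPM in *asxl1*+/+ and was lower without overlap, at -0.08 (SE 0.05). *apoc1* and *apom* were also lower without overlap, at -0.11 (SE 0.07) and -0.15 (SE 0.08).

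The apolipoprotein B genes, whose products form the very-low-density lipoprotein particles that leave the yolk, lay above 0 but for *apobb.2*, at -0.01 (SE 0.13). *apobb.1* averaged 1752 ± 27.4 CPM (SD, n = 2) in *asxl1*-/-, against 1614 ± 71.7 CPM in *asxl1*+/+, higher without overlap at a log2 fold change of 0.12 (SE 0.05). *apoba* had 0.17 (SE 0.08) with overlap, and *mttp*, which loads lipid onto apolipoprotein B, had 0.10 (SE 0.10). The 14 apolipoprotein genes listed other than *apoa1a* had 6 log2 fold changes above 0, 8 below and a median of -0.01. Related copies such as *apoa1a* and *apoa1b*, or *apobb.1* and *apobb.2*, may share reads that were left out of the counts, so their values are less certain, and how many reads this concerns was not tested.

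The retinoid list held 20 genes, of which 12 were matched and 10 passed, 3 above 0 and 7 below with a median of -0.10. Its match is under 80%, so the list is incomplete. *ttr*, whose product holds retinol-binding protein in mammalian plasma, was almost absent, at 0 and 2 counts in *asxl1*-/- and 1 and 1 in *asxl1*+/+. *stra6*, the gene of the receptor that takes up retinol from Rbp4, averaged 24.6 ± 2.82 CPM (SD, n = 2) in *asxl1*-/-, against 25.3 ± 3.74 CPM in *asxl1*+/+, a log2 fold change of -0.04 (SE 0.13). *dhrs3a*, a retinaldehyde reductase, and *rbp2b*, a cellular retinol carrier of the gut, were lower in *asxl1*-/- without overlap, at -0.53 (SE 0.19) and -0.37 (SE 0.12). *aldh1a2*, which makes retinoic acid, and *cyp26a1*, which breaks it down, had 0.12 (SE 0.09) and -0.23 (SE 0.23).

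Of 19 genes listed for intracellular lipid binding and bile acids, 12 were matched and 11 passed, 6 above 0 and 5 below with a median of 0.06, and this list too is incomplete. Of the same ileal route, *slc10a2*, which encodes the apical bile acid importer, averaged 2.68 ± 0.122 CPM (SD, n = 2) in *asxl1*-/-, against 2.59 ± 0.449 CPM in *asxl1*+/+. Its log2 fold change of 0.06 was smaller than its SE of 0.22, and the genotypes overlapped. *slc51a*, one part of the basolateral exporter, had 27 and 40 counts in *asxl1*-/-, against 66 and 58 counts in *asxl1*+/+. It was lower in *asxl1*-/- without overlap, with a log2 fold change of -0.58 (SE 0.27).

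Intestinal relatives of *fabp6* were far more abundant than it. *fabp1b.1* averaged 96.0 ± 7.19 CPM (SD, n = 2) in *asxl1*-/-, against 81.9 ± 9.01 CPM in *asxl1*+/+ and was higher without overlap, at 0.23 (SE 0.09). *fabp2* averaged 25.4 ± 2.60 CPM (SD, n = 2) in *asxl1*-/-, against 28.1 ± 0.395 CPM in *asxl1*+/+ and was lower without overlap, at -0.14 (SE 0.10). *cyp7a1*, the gene of the rate-limiting enzyme of bile acid synthesis, had 6 to 25 counts per library and was lower without overlap, at -0.84 (SE 0.44). *nr1h4*, the bile acid receptor gene, had 20 to 34 counts and was higher without overlap, at 0.64 (SE 0.33).

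Other plasma proteins gave a further reference for *tfa*, *apoa1a* and *rbp4*. Of 20 listed, 18 were matched and 17 passed, 11 above 0 and 6 below with a median of 0.07. The fibrinogen genes *fga*, *fgb* and *fgg* had log2 fold changes of -0.01 (SE 0.08), -0.05 (SE 0.08) and 0.07 (SE 0.10). *serpina1*, an inhibitor of proteases, had 0.00096 (SE 0.07). *itih3a*, of the inter-alpha-trypsin inhibitor family, averaged 8.38 ± 0.901 CPM (SD, n = 2) in *asxl1*-/-, against 4.74 ± 0.637 CPM in *asxl1*+/+, with a log2 fold change of 0.82 (SE 0.17). *masp2*, a protease of the lectin pathway of complement, averaged 8.23 ± 1.03 CPM (SD, n = 2) in *asxl1*-/-, against 14.2 ± 1.02 CPM in *asxl1*+/+, at -0.78 (SE 0.14).

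Over the 5 lists without the 4 genes, 69 genes passed the filter, 35 with a log2 fold change above 0 and 34 below, and the median was 0.00096. None of the 69 had an FDR below 0.05 for genotype by edgeR's quasi-likelihood test or by DESeq2. By edgeR's exact test 2 of them (*itih3a* and *masp2*) did, and that test called 53 of all 19970 genes tested. At an unadjusted p below 0.05 there were 13 of 69 by the quasi-likelihood test, where 3.08% of all genes tested had such a p. The lists were drawn up with the study's own list of genes at hand and 16 of the 74 matched genes are on it, so this share is not independent evidence. Those on it include *fthl28*, *fthl31*, *tfr1a*, *apobb.1*, *dhrs3a*, *rbp2b*, *fabp1b.1*, *itih3a* and *masp2*. Without overlap, 16 of the 69 were lower in *asxl1*-/- and 17 higher, and 14.6% of all genes tested were lower. The share of all genes higher without overlap was not counted, so nothing is read from these separations. By letter 2 of the 69, *tfr1b* and *leap2*, had an FDR below 0.05 by the quasi-likelihood test, as did 2.79% of all genes tested.

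**Figure D4:**
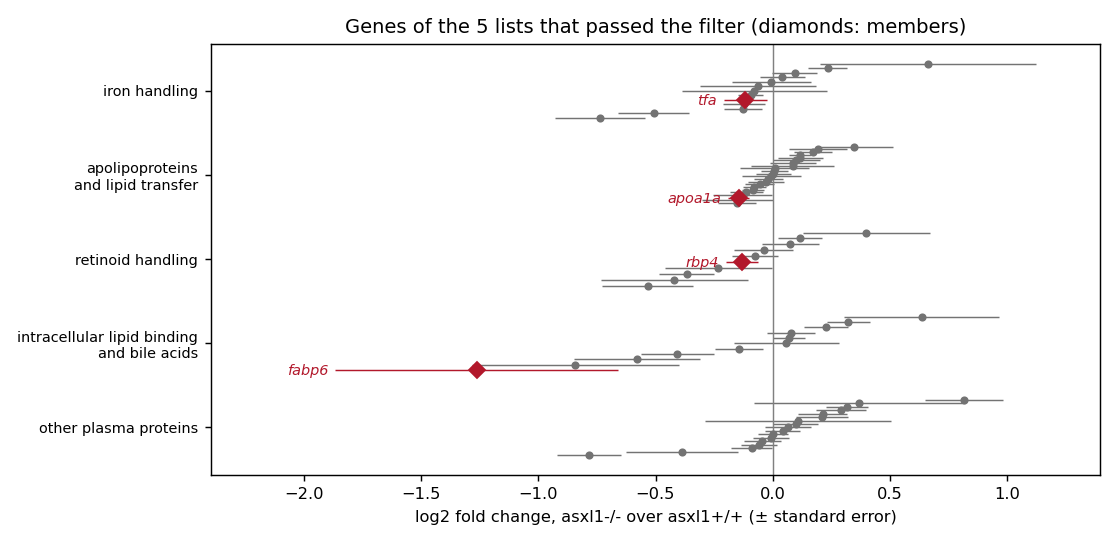
Log2 fold change of *asxl1*-/- over *asxl1*+/+ with its standard error (horizontal axis) for the genes of the 5 lists that passed the filter (vertical axis, grouped by list and sorted by value), with red diamonds for *tfa*, *apoa1a*, *rbp4* and *fabp6* and grey circles for the rest. *tfa*, *apoa1a* and *rbp4* lie between -0.15 and -0.12, inside the range of their lists, and *fabp6* at -1.26 is the lowest value of its list.

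Markers of the tissues that make these proteins were set beside the 4 genes. The 10 yolk syncytial layer genes summed to 8082 and 7945 CPM in *asxl1*-/- replicates A and B, against 7798 and 8462 CPM in *asxl1*+/+ replicates A and B, with 6 log2 fold changes above 0 and 4 below. All of these genes but *ctsba* are also in the iron or apolipoprotein lists. The 13 hepatocyte genes matched summed to 803 and 785 CPM in *asxl1*-/-, against 758 and 831 CPM in *asxl1*+/+. *fabp10a*, a defining liver gene, was almost absent at 0 and 1 counts in *asxl1*-/- and 3 and 3 in *asxl1*+/+. *ttr*, *hpxa*, *gc* and *ahsg1* were scarce too, at no more than 17 counts in any library. The hepatocyte sum thus came mostly from *fga*, *fgb*, *fgg*, *serpina1*, *serpina1l*, *ambp* and *cp*. Both sums overlapped between the genotypes and had their highest value in *asxl1*+/+ replicate B. *tfa* and *rbp4* were also highest there, and so was *apoa1a*, within counting error of *asxl1*+/+ replicate A. The part of either tissue in the values of *tfa*, *apoa1a* and *rbp4* was not tested.

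For *fabp6*, the gut and its neighbour organ are the tissues of interest. The 8 enterocyte genes matched summed to 522 and 486 CPM in *asxl1*-/- replicates A and B, against 479 and 502 CPM in *asxl1*+/+ replicates A and B, with overlap and 4 log2 fold changes on either side of 0. Most of this sum came from *apoa4b.1*, at 314 and 308 CPM in *asxl1*-/- and 305 and 315 CPM in *asxl1*+/+, so it says little about the other genes. The highest log2 fold change, 0.74, was that of *agr2*, which is also in the keratinocyte list. The 17 exocrine pancreas genes matched summed to 5.19 and 4.63 CPM in *asxl1*-/-, against 16.1 and 44.2 CPM in *asxl1*+/+, from 102 and 92 counts in *asxl1*-/- and 371 and 1150 counts in *asxl1*+/+. Of the 17, 11 passed the filter, all 11 are on the study's list, and *pla2g1b* was at 0 in every library. The pancreas sum was highest in *asxl1*+/+ replicate B, whereas *fabp6* was highest in *asxl1*+/+ replicate A. The part of gut or pancreas RNA in the values of *fabp6* was not tested.

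**Figure D5:**
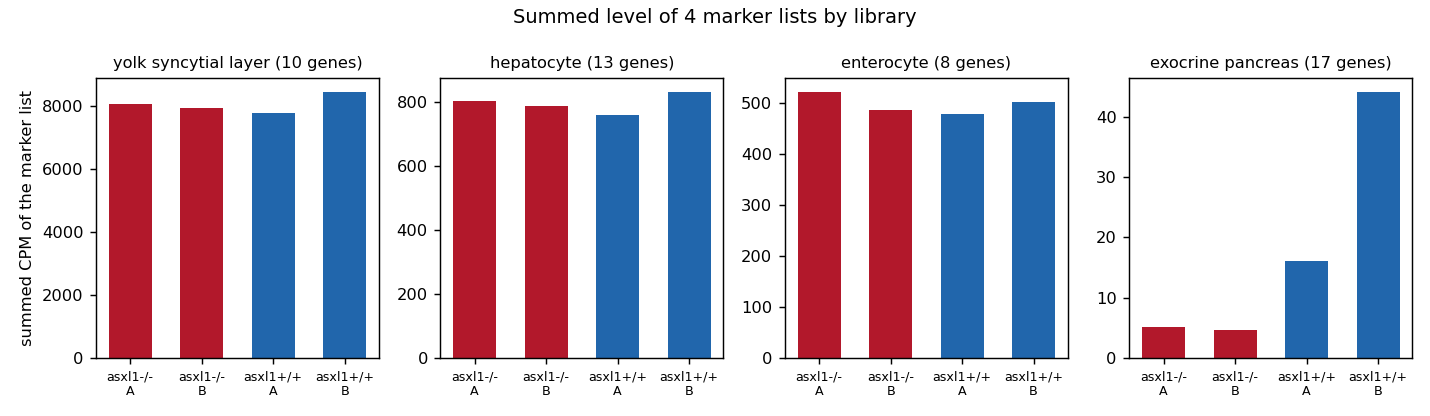
Summed CPM (vertical axis, from 0, a separate scale for each list) of the marker genes of the yolk syncytial layer, hepatocytes, enterocytes and exocrine pancreas in the 2 *asxl1*-/- (red) and the 2 *asxl1*+/+ (blue) libraries (horizontal axis). The first 3 sums overlap between the genotypes, and the exocrine pancreas sum is 5.19 and 4.63 CPM in *asxl1*-/-, below 16.1 and 44.2 CPM in *asxl1*+/+.

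Erythroid cells are the main users of transferrin iron, and the 9 erythrocyte genes matched summed to 1110 and 1033 CPM in *asxl1*-/- replicates A and B, against 1076 and 909 CPM in *asxl1*+/+ replicates A and B. That sum was lower in B than in A in both genotypes, where *tfa* was higher in B. It came mostly from *hbae3*, at 871 and 813 CPM in *asxl1*-/- and 850 and 728 CPM in *asxl1*+/+. The 8 erythrocyte genes that passed the filter had a median log2 fold change of B over A of -0.25, and *tfr1a* had 0.05 (SE 0.09). Neutrophil markers summed to 104 and 95.8 CPM in *asxl1*-/-, against 107 and 129 CPM in *asxl1*+/+. This sum mixes genes of opposite direction, with 2 log2 fold changes above 0 and 5 below. *lyz*, *mpx*, *npsn* and *srgn*, which the paper names as neutrophil markers, were all lower in *asxl1*-/- without overlap, at -1.32, -0.38, -0.40 and -0.36. *cpa5* had -1.07 with overlap, and *mmp9* and *mmp13a* were higher without overlap, at 0.27 and 0.65. The paper reports *mmp13a* beside an inflammatory cytokine gene, not among its neutrophil markers. Of the genes in this neutrophil list, all but *mmp9* are on the study's list. Keratinocyte markers summed to 32915 and 34130 CPM in *asxl1*-/-, against 34599 and 36092 CPM in *asxl1*+/+. This sum came mostly from *krt4*, at -0.01 with overlap, and it too mixes directions. *krt5*, *krt8* and *krt17* were lower in *asxl1*-/- without overlap, at -0.37, -0.19 and -0.31. *cldni* and *agr2* were higher without overlap, at 0.07 and 0.74. Of the 7 keratinocyte genes, 4 are on the study's list. The part of erythroid cells, neutrophils and keratinocytes in the values of the 4 genes was not tested.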

How the data were processed

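RNA-seq was analysed in 4 libraries of tails at 3 dpf, 2 *asxl1*-/- and 2 *asxl1*+/+, grouped by their labels. The paper describes poly-A selected RNA, the labels total RNA. STAR was the authors' aligner (GRCz11), and featureCounts 1.6.4 assigned reads to Ensembl 96 exons regardless of strand. The authors deposited raw counts of 32520 genes with exon positions and exonic length. Antisense reads can therefore not be told apart. Each count table column was 1 library, none was pooled, and none was left out.

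The fits used edgeR 4.0.16 (R 4.3.3). filterByExpr by genotype kept 19970 genes, libraries were scaled by TMM, and genotype and replicate letter were tested in separate fits by the quasi-likelihood test with Benjamini-Hochberg adjustment over all genes tested, at an FDR below 0.05. The 4 genes and the lists were chosen with earlier results of these data known. The 4 genes were matched by the study's supplementary list (294 names), other genes by that table or the gene name table (29201 of 32520 identifiers). Named were the 4 genes, list genes that passed the filter or are scarce or defining, the 3 nearest genes by distance (log2 CPM with a prior count of 2) and the nearest gene tested on each side. The alternatives were edgeR's exact test, the replicate block, DESeq2 1.42.0, library size alone, an FDR of 0.01, no filter other than a total of 1 count, a minimum of 10 counts per library, counts thinned to equal depth (genotype only) and each library left out. The precision is limited by 2 libraries a genotype, and for *fabp6* by counts as low as 8. Protein and promoter sequences of the 4 genes were not used here. Python 3.11.15 was used for tables (pandas 2.3.3), intervals (SciPy 1.17.1) and figures (matplotlib 3.10.9).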

Additional observations from a re-analysis of the deposited data

How the results depend on the processing

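Between the genotypes, 12 genes had an FDR below 0.05 by edgeR's quasi-likelihood test, 53 by the exact test, 27 by DESeq2, 19 with no filter, 2 at an FDR of 0.01, 301 with the replicate block and 9 to 80 with 1 library left out. The count was 80 without *asxl1*-/- replicate B and 67 without *asxl1*-/- replicate A. Of the 4 genes, 0 were called under each of these except the replicate block, which called 2 (*apoa1a* and *rbp4*), and since the genes were picked on this contrast nothing is read from that. The block also called 16 of the 69 other list genes, and 301 of all 19970 genes tested. The lists were drawn up with the study's own list at hand, so nothing is read from this count either. The libraries of a letter share only that letter in the labels, and their departures from the mean of their genotype correlated at 0.27 across 19970 genes.

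With 1 library left out the log2 fold change by genotype ran over -0.26 to 0.034 for *tfa*, -0.18 to -0.11 for *apoa1a*, -0.23 to -0.02 for *rbp4* and -1.94 to -0.11 for *fabp6*. The value for *tfa* changed sign, to 0.034, without *asxl1*+/+ replicate B, and that for *fabp6* moved to -0.11 without *asxl1*+/+ replicate A. Under the 7 other alternatives (6 for *fabp6*, which was not tested at a minimum of 10 counts in every library) each value moved by less than the spread between replicates.

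By letter, 558 genes were called, and 810 by the exact test, 258 by DESeq2 and 1084 with no filter. The count was 247 at an FDR of 0.01, 1703 with genotype as a block and 234 to 523 with 1 library left out. Of the 4 genes, 1 was called, and 2 by the exact test, 3 with no filter, 3 with the block, 0 at an FDR of 0.01 and 0 to 2 with 1 library left out. The log2 fold change of B over A then ran over 0.16 to 0.32 for *tfa*, -0.13 to 0.062 for *apoa1a* (0.028 without *asxl1*+/+ replicate A, 0.062 without *asxl1*-/- replicate B), 0.075 to 0.25 for *rbp4* and -2.10 to -0.58 for *fabp6*. *tfa* was called at 0.24 with genotype as a block (FDR 8.04e-11) and at 0.25 with no filter (FDR 2.26e-06), and was not called when a library other than *asxl1*-/- replicate B was left out. *rbp4* was called at 0.16 with genotype as a block (FDR 4.52e-05) and at 0.17 with no filter (FDR 0.00487). *fabp6* was called at -1.56 by the exact test (FDR 0.0323), at -1.58 with the block (FDR 0.000917) and at -1.56 with no filter (FDR 0.000702). The cause of these differences between settings was not tested. An arm with 1 library left is assumed to vary like the other arm. The precision of *fabp6* is limited by its counts of 8 to 54 per library.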
